A study of Mus musculus with 18 samples.

Results

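The 6 tumors labelled as cholangiocarcinoma (CCA, cancer of bile duct type) comprised 3 raised with the YAP-S form of YAP and 3 raised with the YAP-SY form, out of 18 samples in all. They were chosen by their labels, not by any measured value. All 12 tumors of the series were mouse liver tumors raised with myr-AKT, an AKT kinase held at the membrane and so active, together with 1 YAP form. YAP-S carries S127A, and YAP-SY carries S127A/Y357F. The CCA groups were YAP-S-CCA (tumors 3, 4 and 5) and YAP-SY-CCA (tumors 1, 6 and 8), and each model also had 3 tumors labelled as mixed (YAP-S tumors 2, 7 and 9, YAP-SY tumors 3, 5 and 9), which serve as a comparison. SB1, a cell line with the YAP-S CCA genotype label, had 3 samples in a table of its own and is given as levels only. The labels used here give no strain, age, sex or time for the animals, do not say which liver cells took up the plasmids, and do not say whether 2 tumors can come from 1 animal. The p-values therefore measure the spread between these tumors. Of 43346 genes in the tumor table, 18318 passed the filter on low counts and were tested.

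YAP is a transcriptional partner of the TEAD DNA-binding proteins. Phosphorylation of serine 127 by the Hippo kinases holds YAP in the cytoplasm, so the S127A form escapes that control, and tyrosine 357 is a site that SRC family kinases phosphorylate. In liver, strong YAP activity is known to push hepatocytes towards the program of bile duct cells (cholangiocytes), and YAP also responds to tension in the actin cytoskeleton and drives genes of that cytoskeleton in turn. AKT and YAP together are a known way to raise bile duct cancer in mouse liver. The comparison is between tumors with and without the second substitution that were given the same histological label.

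The 6 CCA tumors held 32999594 to 84515613 counts each. Alb alone took 4.39% to 4.48% of the counts of YAP-S CCA tumors and 8.22% to 8.87% in YAP-SY CCA tumors, and the scaling factors that the trimmed mean of M values (TMM) assigned for such composition were 1.14 to 1.30 and 0.78 to 0.83. Values below are CPM, counts relative to the library total, with totals scaled in this way. On this scale the median log2 fold change of all genes, YAP-SY minus YAP-S, was -0.00, and with library size alone it was -0.56, so rises in particular depend on the scale. Below, the YAP-S group and the YAP-SY group are the 3 CCA tumors of each form, listed in the order 3, 4, 5 and 1, 6, 8. YAP-SY tumor 1 stood apart on the second principal component, at 107 against -68.5 and -14.2 in tumors 6 and 8, and had the fewest genes with a count (18207).

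The CCA label was checked against defining markers of cell types. Bile duct markers (Sox9, Krt19, Krt7, Epcam and Spp1) summed to between 7179 and 10635 CPM in the YAP-S group and to between 2732 and 4130 CPM in the YAP-SY group. The latter lay below all 6 mixed tumors, which held 4184 to 16285 CPM. Hepatocyte markers (Alb, Ttr, Apoa1, Hnf4a and Cps1) summed to between 40977 and 49026 CPM in the YAP-S group and 117691 to 132262 CPM in the YAP-SY group, the latter above all 6 mixed tumors (66287 to 94710 CPM). The YAP-SY tumors labelled as CCA thus had lower bile duct and higher hepatocyte marker sums than the tumors labelled as mixed. For bile duct markers the gap was narrow, with 4130 CPM in YAP-SY CCA tumor 1 and 4184 CPM in YAP-SY mixed tumor 9. Alb made up most of each hepatocyte sum. Between the CCA groups, 4 of 5 bile duct markers were called lower and 4 of 5 hepatocyte markers higher. Fibroblast markers (Col1a1, Col1a2, Dcn, Pdgfrb and Lum) summed to 950 to 1235 CPM in the YAP-S group and 260 to 341 CPM in the YAP-SY group. Of these 5 markers 4 were called lower, and Dcn was not called. The 5 markers of endothelium (Pecam1, Cdh5, Kdr, Stab2 and Clec4g) ran from 257 to 361 and from 336 to 447 CPM. Those of macrophages (Cd68, Adgre1, Clec4f, Vsig4 and Csf1r) ran from 250 to 338 and from 241 to 315 CPM. Both sums mix subtypes, since Stab2 and Clec4g are sinusoidal genes and Clec4f and Vsig4 are Kupffer cell genes. T cell markers summed to 8.16 to 28.3 CPM in the YAP-S group and 4.37 to 6.84 CPM in the YAP-SY group, neutrophil markers to 14.4 to 18.9 and 5.25 to 8.43 CPM, and mesothelial markers to 8.75 to 16.3 and 3.72 to 9.04 CPM. Red blood cell markers summed to 70.6 to 145 CPM in the YAP-S group and 140 to 257 CPM in the YAP-SY group, with 1 of 3 called higher, and B and plasma cell markers to 5.57 to 9.71 and 6.62 to 11.8 CPM. Markers of pancreatic acinar cells stood at 8.61 to 13.9 and 16.04 to 23.3 CPM with 2 of 4 at 0 in every CCA tumor, and adipocyte and skeletal muscle markers were at most 0.494 CPM. In bulk tumors, fewer cells of a type and less RNA per cell cannot be told apart, and the part of these marker differences in the gene changes below was not tested.

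Genes called lower and higher in the YAP-SY group were similar in number, but most genes past a fold of 2 were lower. By edgeR's quasi-likelihood test with a Benjamini-Hochberg adjusted p under 0.05, 39.1% of the 18318 genes were called, 3358 higher (18.3%) and 3813 lower (20.8%) in YAP-SY. Tested against a fold of 2 in place of 0, 883 genes (4.82%) were lower and 91 (0.497%) were higher. The split depends on scaling: with library size alone 760 genes were higher and 8064 lower. The 3 and 3 tumors did not overlap in 9644 genes (52.6%). Called under all 4 scalings tried were 760 higher and 3774 lower genes. Without YAP-S tumor 5, 2090 genes were called higher. The count past a fold of 2 in either direction, 974 (5.32%), was 469 without YAP-SY tumor 6, 554 without YAP-S tumor 4 and 615 without YAP-S tumor 5.

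Ctgf, Ankrd1 and Cyr61, 3 known targets of YAP, fell in the YAP-SY group. Ctgf (ENSMUSG00000019997, mm10 chromosome 10, 24595442 to 24598683), a secreted matrix protein and classical YAP target, was at 186, 176 and 133 CPM in the YAP-S group and 38.0, 19.5 and 25.6 CPM in the YAP-SY group. Every YAP-S tumor lay above every YAP-SY tumor, and Ctgf was 5.96-fold lower (log2 fold change -2.58, SE 0.27, adjusted p 0.000107 by edgeR). Ankrd1 (ENSMUSG00000024803, chromosome 19, 36111965 to 36119844), a nuclear ankyrin repeat protein, was at 197, 127 and 136 CPM in the YAP-S group and 22.8, 8.72 and 13.3 CPM in the YAP-SY group. Cyr61 (ENSMUSG00000028195, chromosome 3, 145646971 to 145649985), a matricellular relative of Ctgf, was at 124, 93.4 and 84.2 CPM in the YAP-S group and at 34.7, 38.6 and 35.6 CPM in the YAP-SY group, and fell by 1.47 on the log2 scale (SE 0.17). SB1 cells held high levels of all 3 genes, with Ctgf at 445 to 561 CPM, Ankrd1 at 221 to 452 CPM and Cyr61 at 117 to 230 CPM of their own libraries. Sox9 (ENSMUSG00000000567, chromosome 11, 112782224 to 112787760), the bile duct transcription factor, was at 60.8, 48.8 and 60.9 CPM against 19.98, 7.995 and 14.7 CPM, and at 33.1 to 43.0 CPM in SB1 cells. Alb (ENSMUSG00000029368, chromosome 5, 90460889 to 90476603), the serum albumin of hepatocytes, was at 38250, 38760 and 33890 CPM against 103100, 114500 and 98820 CPM, and at 612 to 1113 CPM in SB1 cells. In Sox9 and Alb, too, the groups did not overlap.

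The promoters of Ankrd1 and Cyr61 are shown because these are textbook YAP and TEAD targets among the genes that fell, and that of Alb because it led the rise of hepatocyte markers. The windows are RefSeq promoters of GRCm38.p6, the assembly of mm10, from 250 bases before to 50 bases after the gene start, written 5′ to 3′ on the strand of the gene. Capitals mark the TEAD motif GGAATG, or its reverse complement, in the first 2 and the HNF1 motif GTTAAT in the third. Ankrd1 (chr19:36119795-36120094, minus strand) holds 2 TEAD matches, 210 and 123 bases before the start, Cyr61 (chr3:145649936-145650235, minus strand) holds 1 on the opposite strand, 103 bases before the start, and Alb (chr5:90460620-90460919, plus strand) holds 1 HNF1 match 32 bases before the start. These distances are from the RefSeq start, which for Alb lies upstream of the gene start given above.
Ankrd1: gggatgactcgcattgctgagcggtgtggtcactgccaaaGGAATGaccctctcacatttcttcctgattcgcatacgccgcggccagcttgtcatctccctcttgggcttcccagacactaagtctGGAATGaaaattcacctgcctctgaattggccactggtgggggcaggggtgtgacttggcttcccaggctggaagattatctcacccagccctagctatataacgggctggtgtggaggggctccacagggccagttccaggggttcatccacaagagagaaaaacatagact
Cyr61: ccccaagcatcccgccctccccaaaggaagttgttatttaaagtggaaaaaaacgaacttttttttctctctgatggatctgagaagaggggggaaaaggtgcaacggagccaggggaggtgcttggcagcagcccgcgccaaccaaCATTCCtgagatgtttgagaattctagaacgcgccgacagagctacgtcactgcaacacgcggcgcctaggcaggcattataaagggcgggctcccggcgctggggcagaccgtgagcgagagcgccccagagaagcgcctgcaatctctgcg
Alb: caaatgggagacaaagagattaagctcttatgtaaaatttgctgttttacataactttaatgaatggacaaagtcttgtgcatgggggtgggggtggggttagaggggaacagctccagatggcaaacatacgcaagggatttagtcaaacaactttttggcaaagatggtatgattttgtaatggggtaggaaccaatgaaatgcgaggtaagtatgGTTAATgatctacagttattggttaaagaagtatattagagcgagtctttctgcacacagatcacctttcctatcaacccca

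Short motifs of this kind are common, and a match is a description of letters and not a site of binding. Searched on both strands, GGAATG occurs in 14.7% of all 32851 RefSeq promoters. For 12388 of the 18281 tested symbols a promoter was matched, and GGAATG was in 16.2% of 2802 lower genes, 14.1% of 2511 higher genes and 14.7% of 7075 genes not called. GTTAAT occurs in 7.10% of all promoters, and in 4.96% of lower, 7.53% of higher and 6.12% of not called genes. The HNF4 motif CAAAGTCCA occurs in 0.475% of all promoters, in 30 of the higher genes (1.19%), 7 of the lower genes (0.25%) and 46 of the genes not called (0.65%). The AP-1 motif TGANTCA is in 7.81% of all promoters, and in 8.10% of lower, 7.05% of higher and 6.43% of not called genes.

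Some of the largest falls follow, among genes whose YAP-S mean reached 5 CPM and whose groups did not overlap. Wisp2, a matricellular protein of the Ctgf family, was at 42.5, 53.6 and 49.0 CPM in the YAP-S group and at 1.20, 1.01 and 2.98 CPM in the YAP-SY group, a 28.1-fold fall (log2 fold change -4.81, SE 0.67, adjusted p 0.000314 by edgeR). Clca2, a secreted epithelial protein that modulates chloride currents, was at 83.6, 91.5 and 65.1 CPM against 5.66, 1.82 and 2.09 CPM. Dclk1, a microtubule-associated kinase used as a marker of tuft cells, fell from 35.2, 48.7 and 37.9 CPM to 3.04, 1.09 and 1.34 CPM, and Tubb3, a beta tubulin best known from neurons, fell from 5.48, 6.77 and 5.55 CPM to 0.249, 0.0839 and 0.139 CPM. In each of these genes the groups did not overlap. The fall of Wisp2 was -5.45 on the log2 scale without YAP-SY tumor 8, and without YAP-SY tumor 1 that of Clca2 was -5.36 (-4.63 with all tumors) and that of Dclk1 -5.06 (-4.46). SB1 cells held Clca2 at 51.1 to 57.3 CPM, Dclk1 at 48.2 to 54.9 CPM and Tubb3 at 14.6 to 19.6 CPM. Cspg4, a proteoglycan known from pericytes, fell by 4.23 on the log2 scale and was at 0 to 0.0761 CPM in SB1 cells.

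Falls with the smallest p, a choice that favors genes with little spread, were even among tumors. Fstl1 (ENSMUSG00000022816, chromosome 16, 37776873 to 37836514), a secreted glycoprotein of mesenchymal and epithelial cells, was at 181, 204 and 174 CPM in the YAP-S group and 32.7, 29.1 and 37.1 CPM in the YAP-SY group. It was 5.65-fold lower (log2 fold change -2.50, SE 0.20, adjusted p 8.837e-05 by edgeR). Ehd2, an ATPase at the neck of caveolae, fell from 65.2, 74.2 and 58.6 CPM to 12.6, 12.1 and 13.1 CPM. Both genes are expressed in SB1 cells, Fstl1 at 276 to 414 CPM and Ehd2 at 202 to 229 CPM. Msc, a basic helix-loop-helix transcription factor, fell from 8.13, 9.03 and 6.27 CPM to 0.634, 0.643 and 0.640 CPM, and Adamts12, a secreted metalloprotease, from 15.6, 17.2 and 14.4 CPM to 3.97, 3.24 and 3.98 CPM. These genes were low in SB1 cells, at 0.0381 to 0.131 CPM and 0.190 to 0.229 CPM.

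**Figure D1:**
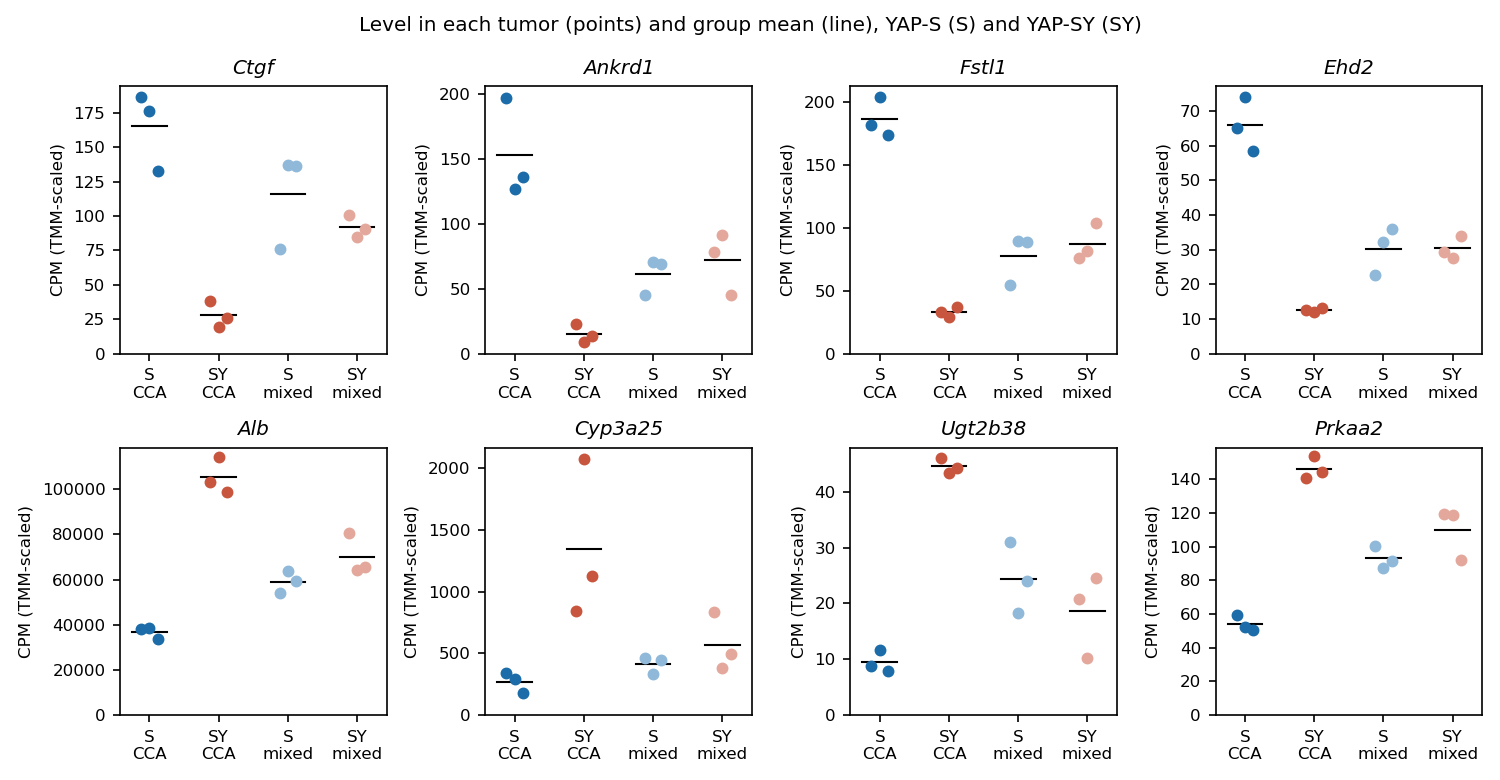
Level of 8 genes in each tumor, in CPM on TMM-scaled libraries (vertical axis, from 0), for YAP-S (S) and YAP-SY (SY) tumors of the CCA and mixed histologies; points are tumors and lines are means of 3. For all 8 genes the 3 YAP-S and 3 YAP-SY CCA tumors do not overlap, and the means of both mixed groups lie between the means of the CCA groups.

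The largest rises included hepatocyte enzymes, and most of those given here were uneven among YAP-SY tumors. Moxd1, a relative of dopamine beta-hydroxylase, was at 82.9, 26.4 and 1.002 CPM in the YAP-SY group against 0.186 to 0.485 CPM in the YAP-S group (log2 fold change 6.89, SE 1.76, adjusted p 0.00853 by edgeR). It was also at 15.8, 0.182 and 50.3 CPM in the YAP-S mixed tumors, and its adjusted p by limma-voom was 0.499 at a log2 fold change of 3.47. Its log2 fold change by edgeR was 5.47 without YAP-SY tumor 1 and 7.53 without YAP-S tumor 3. Clec2h, a C-type lectin of the Clr family, was at 5.42, 37.4 and 32.3 CPM in the YAP-SY group and 2.43 to 3.79 CPM in the YAP-S group. Cyp3a25, a liver cytochrome P450, rose from 337, 295 and 181 CPM to 847, 2074 and 1124 CPM. In Arrdc3, an arrestin-domain protein, YAP-SY tumor 1 held 111 CPM, tumor 6 held 584 CPM and tumor 8 held 336 CPM, all above the 56.4 to 67.1 CPM of the YAP-S tumors, and its log2 fold change of 2.47 was 1.85 without YAP-SY tumor 6. Ugt2b38, a glucuronosyltransferase, was even: 46.1, 43.3 and 44.3 CPM in the YAP-SY group against 8.81, 11.6 and 7.91 CPM in the YAP-S group (log2 fold change 2.24, SE 0.29, adjusted p 0.000221 by edgeR).

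Genes that rose with the smallest p had smaller changes and, as this choice favors, less spread. Prkaa2 (ENSMUSG00000028518, chromosome 4, 105029874 to 105109890), a catalytic subunit of the energy sensor AMPK, was at 59.4, 52.0 and 50.4 CPM in the YAP-S group and at 141, 154 and 144 CPM in the YAP-SY group, 2.71-fold higher (log2 fold change 1.44, SE 0.13, adjusted p 8.837e-05 by edgeR). Xylb, xylulokinase, was at 93.6, 99.0 and 92.8 CPM against 206, 218 and 225 CPM. Akr1c14, a hydroxysteroid dehydrogenase, rose from 214, 226 and 198 CPM to 747, 707 and 614 CPM. Slc17a1, a phosphate and urate transporter of liver and kidney, rose by 1.47 on the log2 scale (6.76 ± 0.80 to 18.8 ± 1.08 CPM, SD, n = 3). Under library size alone these 4 genes were still called higher, with log2 fold changes of 0.87, 0.62, 1.13 and 0.91.

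The 38 gene lists are described by how many tested members were called, to be read against 18.3% higher and 20.8% lower over all genes and a median of -0.00. Lists of mucins, actin, recruited macrophage and matrix genes had the lowest medians and lists of conjugation enzymes, secreted liver hormones and transporters the highest, as the plot of list medians shows. In no list did the median in mixed tumors, given for contrast, lie further from 0 than 0.48.

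**Figure D2:**
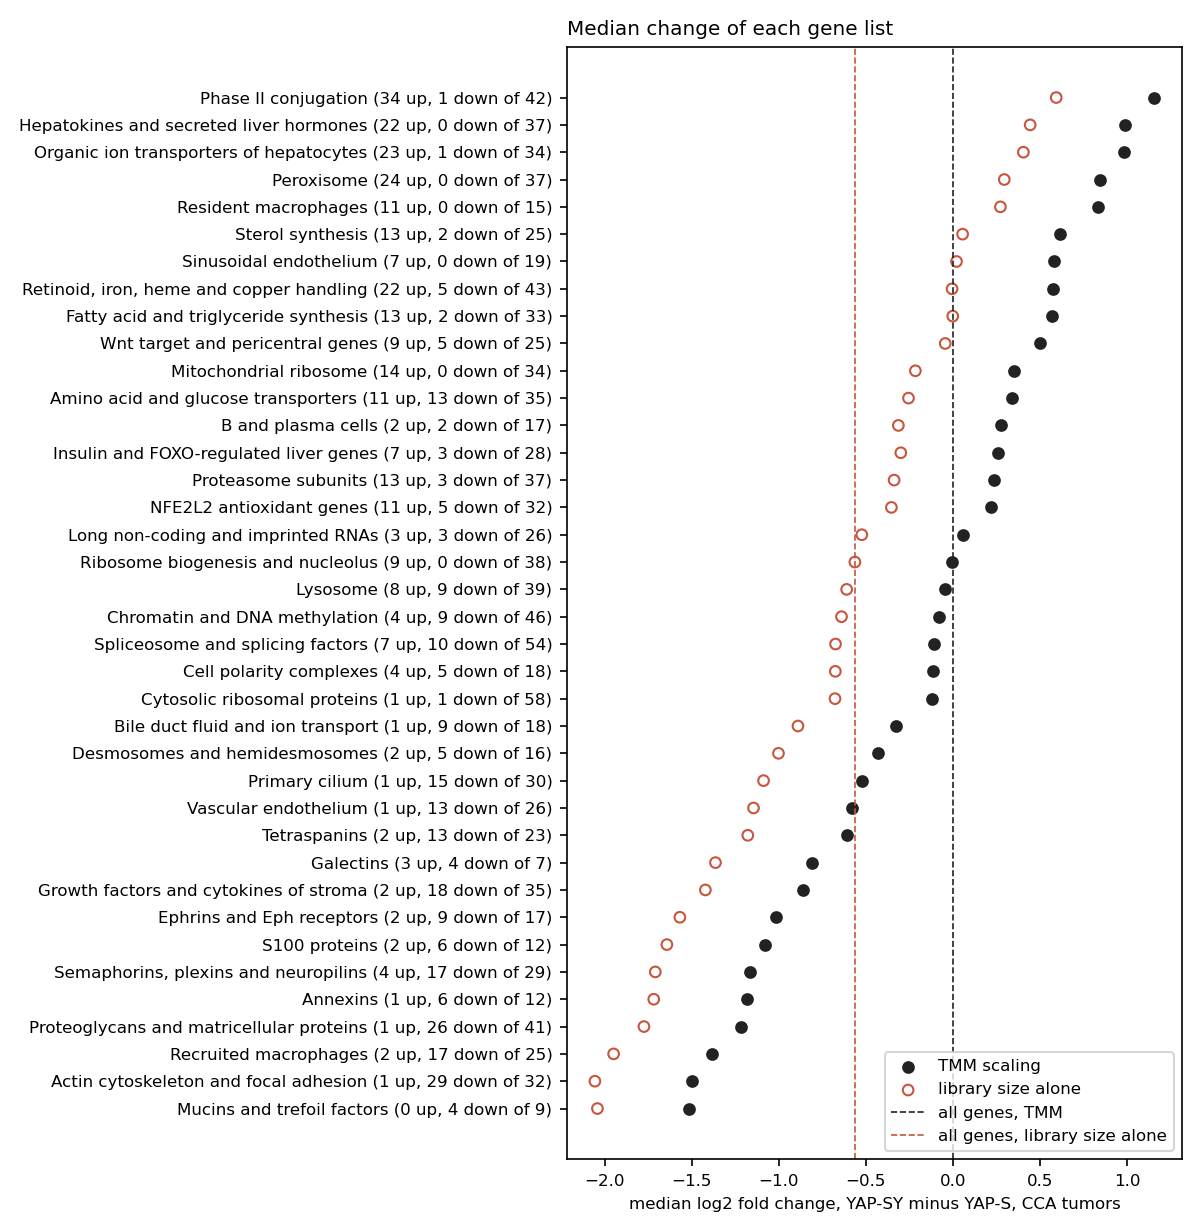
Median log2 fold change (horizontal axis, YAP-SY minus YAP-S in CCA tumors) of each gene list (rows), with filled points for TMM scaling and open points for library size alone; dashed lines are the medians of all genes, -0.00 and -0.56, and brackets give members called higher and lower of those tested. Library size alone moves every list to lower values by about the shift of all genes.

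Actin cytoskeleton and focal adhesion genes fell almost throughout. Of 32 members tested, 29 fell and 1 rose, with a median log2 fold change of -1.50, and all 32 were at 1 CPM or more in SB1 cells. Flna, the filamin that crosslinks actin and binds integrins, was at 714, 750 and 647 CPM in the YAP-S group and at 189, 135 and 192 CPM in the YAP-SY group (log2 fold change -2.04, SE 0.22, adjusted p 0.000107 by edgeR). Tagln2, an actin-binding protein of epithelial cells, fell from 352, 307 and 312 CPM to 72.0, 43.4 and 73.4 CPM. Both were high in SB1 cells, Flna at 1065 to 1298 CPM and Tagln2 at 774 to 813 CPM. The smooth muscle members fell as well: Acta2 by 2.65, Tagln by 2.92 and Myl9 by 2.99 on the log2 scale. SB1 cells held 5.17 to 21.5 CPM of Acta2, below its 66.8 to 85.8 CPM in the YAP-S group. Actb, the cytoplasmic actin often used as a reference gene, fell from 1108, 1082 and 1073 CPM to 625, 388 and 583 CPM. The exception was Rdx, radixin, which links actin to the membrane of bile canaliculi in hepatocytes: it rose from 156, 157 and 150 CPM to 277, 334 and 261 CPM (log2 fold change 0.91, SE 0.14).

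Calcium-binding and membrane-scaffold families linked to epithelial state fell in part. Among 12 annexins 6 fell and 1 rose (median -1.18), and among 12 S100 proteins 6 fell and 2 rose (median -1.08). Anxa2, an annexin of the cell surface, fell from 417, 365 and 395 CPM to 126, 90.9 and 131 CPM. S100a6, a calcium sensor, fell from 23.0, 28.9 and 24.3 CPM to 4.06, 3.24 and 5.76 CPM. These tumor levels were far below those of SB1 cells, at 978 to 1084 CPM for Anxa2 and 1175 to 1364 CPM for S100a6. Of 7 galectins 4 fell and 3 rose, with Lgals3, a galactoside-binding lectin, 5.05-fold lower (41.2 ± 2.94 to 8.16 ± 2.42 CPM, SD, n = 3). Of 23 tetraspanins 13 fell and 2 rose, and Cd63, a tetraspanin of late endosomes, was 3.45-fold lower. With library size alone none of the 3 galectins was called higher.

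Cholangiocytes carry a primary cilium that senses bile flow and a set of channels that make bile fluid, while hepatocytes lack such cilia. Of 30 ciliary genes 15 fell and 1 rose (median -0.52), and 29 of the 30 reached 1 CPM in SB1 cells. Ift57, a carrier of cargo along the cilium, was at 21.6, 27.6 and 20.9 CPM in the YAP-S group and at 3.92, 4.17 and 4.20 CPM in the YAP-SY group (log2 fold change -2.51, SE 0.23, adjusted p 8.837e-05 by edgeR). Bbs1, of the complex that sorts ciliary membrane proteins, fell by 1.99 and Tulp3, an adaptor for ciliary receptors, fell by 2.10 on the log2 scale. Of 18 genes of duct fluid and ion transport 9 fell and 1 rose. Cftr, the chloride channel of the cholangiocyte's apical membrane, was at 45.5, 23.6 and 30.3 CPM in the YAP-S group and at 11.1, 3.58 and 6.57 CPM in the YAP-SY group, and it was the most variable of these genes among YAP-S tumors. The gene that rose was Slc4a4, a sodium bicarbonate cotransporter, from 83.9, 67.9 and 63.7 CPM to 121, 166 and 142 CPM (log2 fold change 0.99, SE 0.15).

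Many matrix proteins other than fibrous collagens fell, as did 4 of the 5 fibroblast markers. The fibroblast markers Dcn and Lum are also members of the matrix list. Of 41 proteoglycans and matricellular proteins 26 fell and 1 rose, with a median of -1.22. The 14 not called include Dcn, Fn1 and Nid1. Fbn1, which builds microfibrils, was at 117, 112 and 118 CPM in the YAP-S group and at 20.4, 29.4 and 37.9 CPM in the YAP-SY group (log2 fold change -1.98, SE 0.22, adjusted p 0.000113 by edgeR). Vcan, a large proteoglycan of provisional matrix, fell from 16.5, 12.6 and 13.7 CPM to 1.22, 2.77 and 2.31 CPM. Lum, a small proteoglycan of fibroblasts, fell from 66.7, 84.7 and 61.3 CPM to 20.5, 14.5 and 21.7 CPM, and was at 0 in every SB1 sample. In Vcan, by contrast, SB1 cells held 65.2 to 72.8 CPM, above every CCA tumor. Sdc2, a heparan sulfate proteoglycan of the liver cell surface, was the 1 member that rose (141, 146 and 120 CPM to 212, 256 and 225 CPM), and it was not called under library size alone (log2 fold change 0.21, adjusted p 0.164).

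Growth factors and cytokines that act on stroma fell in 18 of 35 members and rose in 2, with a median of -0.86. Lif, a cytokine of the interleukin 6 family, fell from 20.7, 21.2 and 16.6 CPM to 3.10, 1.48 and 2.17 CPM (log2 fold change -3.11, SE 0.32, adjusted p 9.926e-05 by edgeR). Pdgfb, the growth factor for pericytes and stellate cells, fell from 39.5, 37.2 and 33.5 CPM to 6.43, 3.52 and 5.76 CPM. Hbegf, a ligand of the epidermal growth factor receptor, was 5.72-fold lower. SB1 cells expressed all 3 factors, Lif at 41.8 to 76.2 CPM, Pdgfb at 57.0 to 86.1 CPM and Hbegf at 120 to 131 CPM. Igf1, which hepatocytes release into blood, rose from 236, 276 and 231 CPM to 564, 725 and 605 CPM and was at 3.31 to 7.83 CPM in SB1 cells. Among guidance molecules, 17 of 29 semaphorins, plexins and neuropilins fell and 4 rose, and 9 of 17 ephrins and Eph receptors fell and 2 rose. Sema5a, a semaphorin with thrombospondin repeats, fell from 52.0, 62.0 and 50.1 CPM to 13.3, 7.04 and 10.4 CPM and was at 1.22 to 1.62 CPM in SB1 cells. Sema7a, a membrane-anchored semaphorin, fell by 2.39, and Efnb2, an ephrin of arteries and epithelium, fell by 1.27 on the log2 scale.

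The lists of resident and of recruited macrophage genes moved mostly in opposite directions. Kupffer cells are the resident macrophages of the liver sinusoid, and inflamed or malignant tissue also holds macrophages that arise from blood monocytes. In the list of 15 resident macrophage genes 11 rose and none fell (median 0.83). In the list of 25 recruited macrophage genes, not all of them particular to these cells, 17 fell and 2 rose (median -1.39). With library size alone 2 resident genes rose and 1 fell, and 21 recruited genes fell. No test of the difference between the lists was made.

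Resident genes that passed rose by 0.53 to 1.41 on the log2 scale. Vsig4, a complement receptor of Kupffer cells, was at 19.2, 24.6 and 19.5 CPM in the YAP-S group and at 39.7, 44.3 and 35.2 CPM in the YAP-SY group (log2 fold change 0.91, SE 0.18, adjusted p 0.00197 by edgeR). Timd4, a receptor for phosphatidylserine on dying cells, was at 4.83, 4.77 and 5.17 CPM against 8.202, 10.04 and 9.15 CPM. The groups did not overlap in these genes, and both genes were at 0 in all SB1 samples. Under library size alone Vsig4 (0.35, adjusted p 0.0751) and Timd4 (0.32, adjusted p 0.19) were not called. Clec4f, a lectin that marks Kupffer cells in mouse, was at 76.7, 78.0 and 64.3 CPM against 102, 95.8 and 119 CPM. Its call rests on the full set of tumors, with an adjusted p of 0.0492 that was 0.0606 to 0.169 without any 1 CCA tumor, and its log2 fold change of 0.53 was -0.02 under library size alone. Slc40a1, the iron exporter ferroportin, had the largest rise among resident genes (1.41 on the log2 scale), and hepatocytes and SB1 cells (35.5 to 52.4 CPM) express it too.

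Genes of the recruited list fell unevenly. C1qa, a chain of complement C1q, is made by macrophages in general and is not particular to recruited ones. It was at 89.4, 132 and 120 CPM in the YAP-S group and at 40.2, 15.7 and 52.3 CPM in the YAP-SY group (log2 fold change -1.66, SE 0.38, adjusted p 0.00462 by edgeR). Trem2, a lipid receptor of tumor and scar macrophages, was at 6.23, 5.67 and 7.65 CPM against 3.13, 0.559 and 2.48 CPM. In both genes YAP-SY tumor 6 was the lowest. Mmp12, macrophage elastase, fell from 18.8, 18.2 and 16.7 CPM to 3.87, 6.79 and 6.01 CPM. SB1 cells held C1qa at 0 to 0.0395 CPM, Trem2 at 0.631 to 1.22 CPM and Mmp12 at 0.0789 to 0.761 CPM. The recruited genes called higher, Apoe and Arg1, are also main products of hepatocytes. Apoe, an apolipoprotein, was at 6243, 6204 and 4577 CPM in the YAP-S group and 9877, 6344 and 10690 CPM in the YAP-SY group (log2 fold change 0.66, adjusted p 0.0432 by edgeR). Its adjusted p was 0.0681 without YAP-S tumor 3, 0.068 without YAP-S tumor 4, 0.16 without YAP-S tumor 5, 0.108 without YAP-SY tumor 1 and 0.145 without YAP-SY tumor 8, and 0.703 under library size alone (0.11). Arg1, the urea cycle arginase, was at 645, 589 and 370 CPM in the YAP-S group and at 1112, 1215 and 1114 CPM in the YAP-SY group. Its adjusted p of 0.0115 was 0.0555 without YAP-S tumor 5, where the log2 fold change was 0.88 in place of 1.10, and 0.0957 under library size alone.

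Endothelial genes divided in a similar way. Liver sinusoids are lined by a fenestrated endothelium that scavenges and makes factor VIII, whereas arteries, veins and tumor vessels have a continuous one. Of 19 sinusoidal genes 7 rose and none fell (median 0.58), and of 26 vascular genes 13 fell and 1 rose (median -0.58). Under library size alone 1 sinusoidal gene rose and 3 fell, and 22 vascular genes fell. F8, clotting factor VIII, rose from 14.3, 19.7 and 12.9 CPM to 30.99, 44.5 and 30.7 CPM (log2 fold change 1.18, SE 0.21, adjusted p 0.00131 by edgeR). Mrc1, a mannose receptor of sinusoidal endothelium and resident macrophages, was at 45.6, 58.7 and 38.7 CPM against 71.4, 115 and 86.9 CPM and was not called under library size alone (0.37, adjusted p 0.0735).

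Among vascular genes, Vwf, the carrier of factor VIII in continuous endothelium, fell from 13.5, 17.6 and 15.0 CPM to 4.10, 4.92 and 6.04 CPM. Cd34, a sialomucin of vessels and progenitors, fell from 50.5, 45.3 and 48.0 CPM to 15.0, 19.3 and 22.3 CPM, and Plvap, of the diaphragms of capillaries, fell from 40.8, 36.0 and 39.7 CPM to 17.9, 12.3 and 25.1 CPM. Vwf and Plvap were under 0.54 CPM in SB1 cells, and Cd34 was at 7.60 to 25.1 CPM there. Kdr, a receptor for vascular endothelial growth factor, was the vascular gene called higher, but its groups overlapped, with 76.5, 82.9 and 53.8 CPM in the YAP-S group and 71.5, 122 and 119 CPM in the YAP-SY group. Its adjusted p of 0.0465 rose to 0.0749 without YAP-S tumor 3, 0.194 without YAP-S tumor 5, 0.159 without YAP-SY tumor 6 and 0.142 without YAP-SY tumor 8, and its log2 fold change of 0.55 was -0.01 under library size alone.

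**Figure D3:**
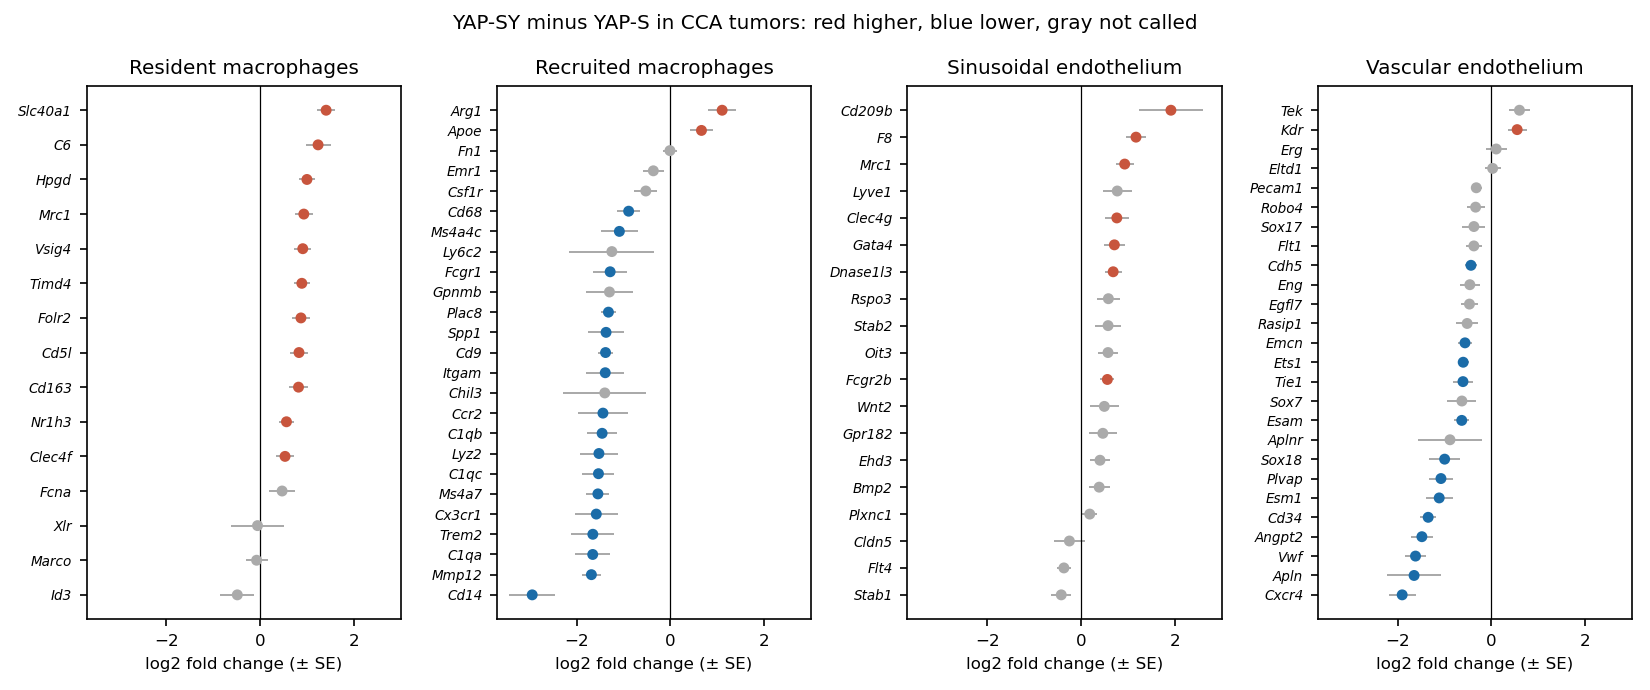
Log2 fold change, YAP-SY minus YAP-S in CCA tumors (horizontal axis, points, with bars of 1 SE from the edgeR fit), of the tested members of 4 lists (rows); red is called higher, blue called lower and gray not called. Called members lie right of 0 for resident macrophage and sinusoidal genes and, apart from Arg1, Apoe and Kdr, left of 0 for recruited macrophage and vascular genes.

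Transporters of glucose and amino acids changed in both directions, with 13 of 35 lower and 11 higher. Slc2a2, the low-affinity glucose transporter of hepatocytes, was at 119, 92.0 and 96.3 CPM in the YAP-S group and at 198, 346 and 304 CPM in the YAP-SY group (log2 fold change 1.46, SE 0.19, adjusted p 0.000221 by edgeR). Slc2a1, the glucose transporter of most other cells, was at 52.0, 24.7 and 33.8 CPM against 10.5, 9.14 and 15.2 CPM. Its fold was 3.18, with a log2 fold change of -1.67 (SE 0.36). Slc16a3, which exports lactate, was at 27.4, 13.1 and 17.6 CPM in the YAP-S group and only 0.816, 0.895 and 0.779 CPM in the YAP-SY group, 23.3-fold lower. For amino acids, Slc38a4, a neutral amino acid carrier of liver, rose from 544, 616 and 445 CPM to 1072, 1689 and 1217 CPM. Slc7a1, the cationic amino acid transporter of most tissues outside the liver, fell from 22.7, 25.5 and 21.9 CPM to 4.67, 3.97 and 5.23 CPM, and Slc7a5, which brings in leucine, fell from 14.9, 14.9 and 13.95 CPM to 3.90, 3.22 and 5.90 CPM. In SB1 cells Slc2a2 and Slc38a4 were near 1 CPM (0.304 to 1.34 CPM), while Slc2a1 was at 107 to 191 CPM, Slc7a1 at 204 to 285 CPM and Slc7a5 at 147 to 186 CPM.

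Among proteasome subunits the immune subunits fell and some of the others rose. Of 37 subunits 13 rose, 3 fell and 21 were not called, with a median of 0.24, and under library size alone none rose and 17 fell. Psmd11, a lid subunit, was at 109, 117 and 99.0 CPM against 170, 177 and 161 CPM, and Psmb7, a constitutive catalytic subunit, rose from 110, 107 and 114 CPM to 169, 216 and 145 CPM. Neither was called under library size alone (0.08 and 0.10). The 3 genes that fell are the catalytic subunits of the immunoproteasome, which interferon induces for antigen processing. Psmb8 was at 46.2, 96.5 and 72.0 CPM in the YAP-S group and 22.8, 11.7 and 32.3 CPM in the YAP-SY group (log2 fold change -1.68, SE 0.35, adjusted p 0.00286 by edgeR). Psmb9 fell from 26.1, 60.7 and 45.7 CPM to 6.89, 9.67 and 19.2 CPM, and in both genes YAP-S tumor 3 was the lowest YAP-S tumor and YAP-SY tumor 8 the highest YAP-SY tumor. Psmb10 was at 31.2, 44.8 and 39.1 CPM against 22.1, 9.90 and 27.2 CPM. Its log2 fold change was -0.96 (adjusted p 0.0474), which missed the threshold without YAP-S tumor 4 (-0.83, adjusted p 0.132), without YAP-S tumor 5 (-0.96, adjusted p 0.089), without YAP-SY tumor 1 (-1.05, adjusted p 0.0705) and without YAP-SY tumor 6 (-0.64, adjusted p 0.14). T cell markers, which sum to 8.16 to 28.3 CPM in the YAP-S group and 4.37 to 6.84 CPM in the YAP-SY group, were also lowest in tumor 3 among the YAP-S tumors, and their part in these falls was not tested.

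**Figure D4:**
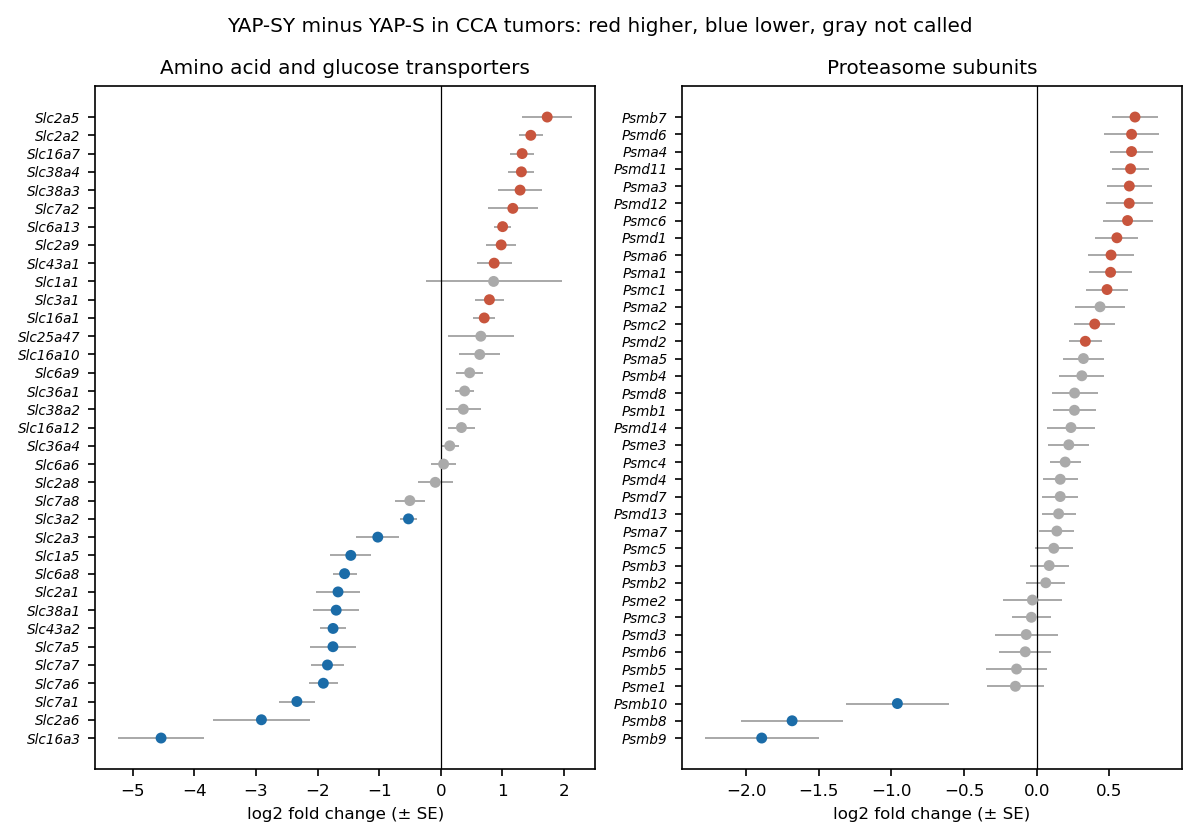
Log2 fold change, YAP-SY minus YAP-S in CCA tumors (horizontal axis, points, with bars of 1 SE), of glucose and amino acid transporters (left) and proteasome subunits (right), ordered by value; red is called higher, blue called lower and gray not called. Slc16a3 lies lowest among transporters, and Psmb9, Psmb8 and Psmb10 lie apart from the other proteasome subunits.

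Conjugation and uptake of drugs, bile acids and hormones, a main task of hepatocytes, rose broadly. Of 42 phase II conjugation genes 34 rose and 1 fell (median 1.16), and 23 rose and 2 fell under library size alone. Ugt2b36, a glucuronosyltransferase, rose from 381, 398 and 328 CPM to 938, 1349 and 924 CPM (log2 fold change 1.54, SE 0.21, adjusted p 0.000313 by edgeR). Glyat, which joins glycine to acyl groups in mitochondria, rose from 151, 171 and 134 CPM to 360, 527 and 346 CPM. Both were low in SB1 cells, at 11.7 to 24.2 CPM and 0.197 to 0.316 CPM. Of 34 organic ion transporters 23 rose and 1 fell (median 0.98; 12 and 1 under library size alone). Slco1a4, an uptake carrier for organic anions, was at 12.6, 11.96 and 11.1 CPM against 22.2, 73.5 and 69.2 CPM, with YAP-SY tumor 1 the lowest of its group. Slco3a1, a relative with wide tissue distribution, was the member that fell, from 141, 158 and 130 CPM to 15.9, 7.44 and 15.5 CPM (log2 fold change -3.46, SE 0.37), and SB1 cells held it at 84.3 to 93.8 CPM.

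Hepatokines and other secreted liver hormones or their receptors rose in 22 of 37 members and fell in none, with a median of 0.99 (12 rose and 2 fell under library size alone). Ghr, the growth hormone receptor, rose from 258, 287 and 198 CPM to 549, 913 and 609 CPM (log2 fold change 1.48, SE 0.25, adjusted p 0.000919 by edgeR). Its downstream hormone Igf1 rose too, by the values given above.

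Peroxisome genes rose in 24 of 37 members and fell in none (median 0.85; 14 and 0 under library size alone). Pipox, which oxidizes pipecolic acid and sarcosine, rose from 164, 178 and 159 CPM to 359, 445 and 395 CPM, and Ehhadh, of peroxisomal fatty acid oxidation, rose from 187, 167 and 141 CPM to 333, 522 and 420 CPM. Abcd2, a peroxisomal importer of very long chain fatty acids, had the largest rise of the list, from 9.43, 5.16 and 5.74 CPM to 18.9, 49.7 and 34.1 CPM (log2 fold change 2.33, SE 0.36, adjusted p 0.000516 by edgeR). Fatty acid and triglyceride synthesis genes rose in 13 of 33 members and fell in 2, and sterol synthesis genes rose in 13 of 25 and fell in 2. Under library size alone each of these 2 lists had 2 higher and 4 lower members. Elovl2, which elongates polyunsaturated fatty acids, rose from 253, 237 and 198 CPM to 644, 874 and 626 CPM, while Scd2, a desaturase of non-hepatocyte cells, fell from 396, 348 and 457 CPM to 103, 124 and 163 CPM. SB1 cells showed the reverse levels, with Elovl2 at 0.0327 to 0.0761 CPM and Scd2 at 1667 to 1711 CPM. Sc5d, a late enzyme of cholesterol synthesis, rose by 1.28 (SE 0.27), and Stard4, a cholesterol carrier, by 1.05 on the log2 scale (SE 0.20).

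Genes of retinoid, iron, heme and copper handling rose in 22 of 43 members and fell in 5 (4 rose and 11 fell under library size alone). Trf, plasma transferrin, was at 11910, 11320 and 10330 CPM in the YAP-S group and 20990, 20510 and 21390 CPM in the YAP-SY group, and it was not called under library size alone (0.34, adjusted p 0.0627). Aldh1a2, which makes retinoic acid, fell from 21.3, 34.4 and 21.7 CPM to 5.12, 1.79 and 2.28 CPM (log2 fold change -3.06, SE 0.41, or -3.66 without YAP-SY tumor 1). Of 32 NFE2L2 antioxidant genes 11 rose and 5 fell (5 and 9 under library size alone). Gclc, the rate-limiting enzyme of glutathione synthesis, rose from 363, 347 and 365 CPM to 751, 780 and 726 CPM, and Cat, catalase, rose from 1604, 1813 and 1417 CPM to 3594, 4073 and 3614 CPM. G6pdx, which supplies NADPH through the pentose phosphate pathway, fell from 38.8, 45.5 and 43.7 CPM to 20.3, 12.2 and 21.9 CPM.

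Wnt target genes and pericentral genes, the latter known from hepatocytes around the central vein, form 1 list. Of its 25 members 9 rose and 5 fell (2 and 7 under library size alone). The Wnt targets Tbx3 and Znrf3 were among those that rose, and neither was called under library size alone. The 11 not called include the Wnt targets Axin2, Lgr5, Notum and Sp5 and the pericentral genes Cyp1a2 and Rhbg. Besides Ccnd1, those that fell were Lef1, Tcf7, Slc1a4 and Tnfrsf19. Cyp2e1, a pericentral cytochrome P450, was at 2730, 3320 and 1912 CPM in the YAP-S group and at 6423, 9409 and 6913 CPM in the YAP-SY group (log2 fold change 1.51, SE 0.30, adjusted p 0.00223 by edgeR). Slc1a2, a pericentral glutamate transporter, rose from 71.3, 105 and 54.4 CPM to 243, 291 and 149 CPM. Glul, glutamine synthetase, was at 627, 800 and 415 CPM against 1113, 1017 and 886 CPM. Its log2 fold change of 0.71 (adjusted p 0.0486) missed the threshold without any 1 of the CCA tumors YAP-S 3, YAP-S 5, YAP-SY 1, YAP-SY 6 and YAP-SY 8 (adjusted p 0.0557 to 0.19) and under library size alone (0.16, adjusted p 0.584). Ccnd1, the G1 cyclin, fell from 339, 348 and 316 CPM to 94.5, 56.0 and 87.1 CPM, the opposite direction to the pericentral enzymes.

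Both introduced proteins have mouse genes, and plasmid and endogenous counts cannot be separated. Yap1 was not called (101.6 ± 9.33 CPM in the YAP-S group and 91.1 ± 9.81 CPM in the YAP-SY group, SD, n = 3, adjusted p 0.364 by edgeR). Under library size alone it was called lower (log2 fold change -0.72). Akt1 was 3.55-fold lower in the YAP-SY group, so the CCA groups differed in the level of this transcript as well as in the YAP form. Its part in the other changes was not tested. Insulin and FOXO-regulated liver genes showed 7 of 28 members higher and 3 lower (3 and 6 under library size alone). That is 35.7% called, near the 39.1% of all genes, and a link of this list to Akt1 was not tested. Pik3ip1, an inhibitor of PI3 kinase, fell from 9.20, 13.1 and 10.9 CPM to 1.25, 1.23 and 1.92 CPM (log2 fold change -2.92, SE 0.35, adjusted p 0.00016 by edgeR). Enpp2, the enzyme that makes lysophosphatidic acid, rose from 35.1, 36.7 and 24.7 CPM to 85.3, 166 and 112 CPM. Insr, the insulin receptor, rose from 123, 119 and 94.3 CPM to 172, 294 and 226 CPM.

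Ribosomal protein genes were called rarely on the TMM scale. Of 58 cytosolic ribosomal proteins 1 rose and 1 fell, or 3.45% against 39.1% of all genes, with a median of -0.12, and under library size alone 50 fell. Rps27a had a log2 fold change of 0.57 with overlapping groups, which was 0.37 to 0.67 without any 1 of the CCA tumors YAP-S 3, YAP-S 4, YAP-S 5, YAP-SY 1 and YAP-SY 6, past the threshold in none, and -0.01 under library size alone. Rps12 had a log2 fold change of -0.54 (adjusted p 0.0378), and its adjusted p was 0.0611 to 0.132 without any 1 of the same 5 tumors. Of 38 genes of ribosome biogenesis 9 rose and none fell, and of 34 mitochondrial ribosomal genes 14 rose and none fell. Under library size alone these lists had 1 higher and 21 lower, and 0 higher and 9 lower. Of 54 splicing genes 7 rose and 10 fell, of 46 chromatin genes 4 rose and 9 fell, and of 39 lysosomal genes 8 rose and 9 fell, with medians of -0.11, -0.08 and -0.05. Uhrf1, which guides maintenance of DNA methylation in dividing cells, fell from 28.4, 23.8 and 31.4 CPM to 6.004, 2.91 and 6.79 CPM, Hmgb2, a chromatin protein abundant in dividing cells, fell by 1.66, and Srsf7, a splicing factor, fell by 0.72 on the log2 scale. Few members were called in the lists of B and plasma cell genes (2 rose and 2 fell of 17) and of long non-coding and imprinted RNAs (3 and 3 of 26). Cell polarity genes (4 rose and 5 fell of 18), desmosome and hemidesmosome genes (2 and 5 of 16) and mucins with trefoil factors (0 and 4 of 9) had medians of -0.11, -0.43 and -1.52.

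The mean of each mixed group was between the CCA means for 3165 of the higher genes (94.3%) and 3439 of the lower genes (90.2%). The same held for 3635 of the 11147 genes not called (32.6%). Called genes are those whose CCA means lie apart, which favors this position, so the counts are a description only. Between the YAP forms within mixed tumors, edgeR called 0 genes of 18318 (0.0%, with 551 at an unadjusted p under 0.05), limma-voom called 0 (1759 at an unadjusted p under 0.05) and DESeq2 called 11 (664). The difference between the effect in CCA and the effect in mixed tumors was tested directly, with the same CCA tumors. It was called for 2787 genes (15.2%), 919 (5.02%) with a higher and 1868 (10.2%) with a lower YAP-SY effect in CCA. That count was 1058 without YAP-S mixed tumor 2, 1323 without YAP-S CCA tumor 5, 1564 without YAP-S mixed tumor 9, 1744 without YAP-S CCA tumor 4 and 1749 without YAP-SY mixed tumor 5.

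In mixed tumors 2, 7 and 9 of YAP-S, Ankrd1 was at 45.0, 70.1 and 68.6 CPM, and in mixed tumors 3, 5 and 9 of YAP-SY at 78.4, 91.6 and 45.4 CPM, overlapping values between those of the CCA groups, and the difference of the effects was -3.58 on the log2 scale (SE 0.49, adjusted p 0.00292 by edgeR). Fstl1 was at 54.0 to 89.1 CPM and 75.8 to 104 CPM in the mixed groups, and Rab11fip5, an effector of recycling endosomes, at 6.60 to 13.4 CPM and 10.2 to 15.8 CPM, against 30.1 to 32.6 CPM in the YAP-S group and 3.74 to 5.37 CPM in the YAP-SY group. Mixed tumors of YAP-S held Ugt2b38 at 31.03, 18.2 and 24.0 CPM and those of YAP-SY at 20.9, 10.3 and 24.6 CPM, with a difference of effects of 2.63 (SE 0.40, adjusted p 0.00371 by edgeR). Of the largest rises in CCA, Clec2h was at 2.07 to 4.02 CPM in mixed tumors of YAP-S and 11.1 to 23.2 CPM in those of YAP-SY, and Abcd2 at 4.70 to 7.70 CPM and 13.2 to 22.9 CPM. These genes were picked, and how many of all genes lay apart in this way in mixed tumors was not counted. Neither was called in mixed tumors, and their differences of effects were 0.36 (adjusted p 0.777) and 0.74 (adjusted p 0.323). Among lists, the difference of effects was lower in CCA for 23 of 32 actin and focal adhesion genes, 17 of 41 proteoglycans, 7 of 25 recruited macrophage genes and 0 of 19 sinusoidal genes, and higher for 15 of 42 conjugation genes and 2 of 15 resident macrophage genes.

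**Figure D5:**
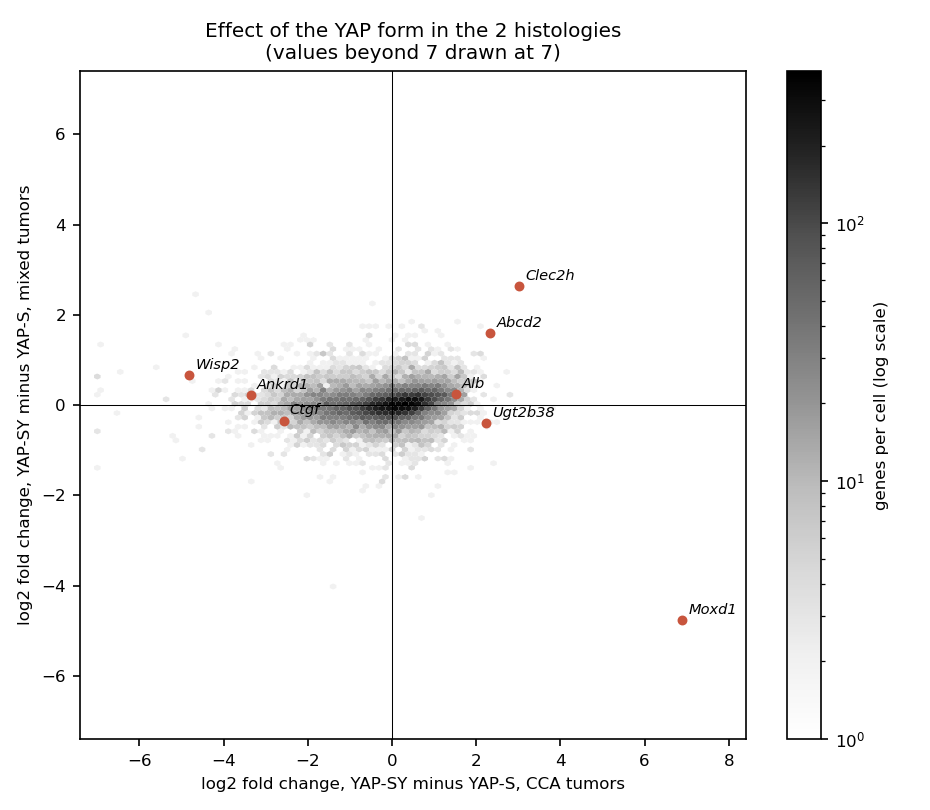
Log2 fold change, YAP-SY minus YAP-S, in CCA tumors (horizontal axis) and in mixed tumors (vertical axis) for all 18318 genes, shaded by the number of genes per cell on a log scale, with named genes as red points. Most genes spread along the horizontal axis and lie near 0 on the vertical axis, and Clec2h and Abcd2 lie high on both.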

How the data were processed

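RNA sequencing of 12 tumors and 3 SB1 samples was used; 3 columns of per-sample values that match no sample label were not used. For the tumors the authors deposited corrected counts per gene, and what was corrected is not given in the sources used here. Small values were not spread as in raw counts. In YAP-S CCA tumor 3, 909, 378 and 604 genes had a count of 1, 2 and 3. In YAP-SY CCA tumor 1 these were 398, 73 and 133 genes, and in YAP-SY CCA tumor 8 they were 1236, 576 and 562. In SB1 sample 1, with raw counts, they were 1529, 982 and 722. The corrected values were used as counts, and the effect of the correction on the p-values was not tested. SB1 values were raw counts per gene in a separate deposited table and enter no test. STAR and the build mm10 are named in the submitters' processing notes, with no version or counter. From the counts, genes were filtered with filterByExpr by group (18318 kept) and scaled by TMM. All 12 tumors were fitted with 1 term per group by edgeR 4.0.16 (glmQLFit, glmQLFTest, and glmTreat for a fold of 2) under R 4.3.3, with Benjamini-Hochberg adjustment over all genes tested at 0.05. SE values were calculated from that fit, as the absolute log2 fold change divided by the square root of its F statistic. If the corrected values are taken as counts, totals of 32999594 to 84515613 per CCA tumor set the counting error. For some genes that error is as large as the spread between tumors. Of the 43346 symbols, 27 that a spreadsheet had turned into dates were restored from their identifiers.

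The members, lists, tests and named genes were chosen with earlier results of these data known. Named are some of the 12 largest and 8 smallest-p changes in each direction (mean of at least 5 CPM, no overlap), up to 6 members of each of 38 lists and members against a list's majority, 4 interaction genes in each direction, and the markers Ctgf, Ankrd1, Sox9 and Alb with Yap1 and Akt1. Actb, C1qa, Clec4f, Cyr61, Ehhadh, Ghr, Glul, Myl9, Slc2a1, Slc7a5, Tagln, Trem2 and Trf lie outside this rule and were chosen after their values were seen; a few genes that the rule names are not reported here. The fit was tested on simulated counts for the CCA comparison over 18318 genes: of 50 genes each, 25 were recovered at a fold of 2, 24 at 0.5, 50 at 4 and 49 at 0.25, with 9 false calls. Only these genes were changed, as many up as down, all drawn from genes with higher counts, at a single dispersion of 0.06. In the data 39.1% of genes were called and composition differed between the groups. The simulation therefore does not test the scaling, and its recovery and false calls do not carry over. Alternatives were other scalings, DESeq2 1.42.0, limma-voom 3.58.1 with quality weights, other count filters, a fit of CCA tumors alone, and leaving out each tumor.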

Additional observations from a re-analysis of the deposited data

Results flagged for a closer look

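The effect of the YAP form was tested for a difference between CCA and mixed tumors with an interaction term in edgeR, and results that passed are given here as the CCA effect minus the mixed effect on the log2 scale. The effect was higher in CCA for 919 genes and lower for 1868, or 15.2% of all genes tested. It differed for 78 of the 108 genes named here, most of which were chosen for their change in CCA or for this difference, so that share is a description only. Among markers the difference was -2.24 for Ctgf (SE 0.37), -3.58 for Ankrd1 (SE 0.49), -2.12 for Sox9 (SE 0.48) and 1.26 for Alb (SE 0.29). Those with the smallest p in the lower direction were Ehd2 at -2.39, Fstl1 at -2.67, Adamts12 at -2.22 and Rab11fip5 at -3.10. In the higher direction they were Ugt2b38 at 2.63, Xylb at 0.91, Prkaa2 at 1.20 and Slc17a1 at 1.43.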

How the results depend on the processing

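No paired analysis was possible because the 2 CCA groups share no tumor number (3, 4 and 5 against 1, 6 and 8). Library size alone gave 760 higher and 8064 lower genes, 2452 past a fold of 2 and 4329 whose effect differed between histologies; the Wald test of DESeq2 gave 4231 for the last. Leaving out 1 tumor at a time gave 2090 to 3278 higher genes, 3031 to 3664 lower genes, 469 to 971 past a fold of 2 and 1058 to 3077 with a differing effect. With 1 tumor left out its group keeps 2, and the spread is shared with the other groups. The other settings gave 2862 to 3943 higher and 3506 to 4140 lower genes. Of the 108 genes named, 91 kept their direction and side of the threshold under each of 14 settings, 8 changed without 1 tumor and 14 under library size alone, where Clec4f (-0.0246), Kdr (-0.009) and Rps27a (-0.0142) also changed sign. Depth limits Tubb3, at 19 counts in all YAP-SY CCA tumors together.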
